A study of Phyllostachys violascens with 18 samples.

Results

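The genes of heat shock proteins, of the chaperonins and of the heat stress transcription factors that control many of them were followed through leaf growth in a bamboo, Phyllostachys violascens, and in its variant ‘Flavistriatus’. A gene was a member if its description in the deposited table contained the words heat shock, heat stress transcription factor, class I or II (or higher) heat, or chaperonin. The rule read descriptions alone, but it was set with earlier results of these data known. The rule took 152 of 42520 genes, and 144 of them had enough counts to be tested, among 37595 tested genes. The 152 members comprised 40 heat stress transcription factors (HSFs), 44 small heat shock proteins, 31 proteins of the HSP70 family, 9 of the HSP90 family, 22 chaperonins of group I, 3 activators of the HSP90 ATPase and 3 others, of which a pair are RbcX proteins. No member was placed in the HSP100 family or among the group II chaperonins. The gene names were given to bamboo genes by likeness to other plants, so the roles stated for them are those known in Arabidopsis, rice or other species.

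The study set leaves of the typical plant beside leaves of the variant at 3 stages, which the titles call young, immature and mature. Each of the 6 groups had 3 libraries, 18 in all, and the plants grew in a greenhouse. The titles name leaf while the tissue entry says culms, the jointed stems of bamboo. The labels describe no heat treatment, and they are silent on whether replicates were grown as separate plants, so the p-values measure the spread between these libraries, which may be technical. The cDNA was primed on poly(A) tails, extended to full length by the SMARTer method and amplified by PCR before fragmentation. The labels mention neither strand marking nor molecular identifiers, and reads of overlapping genes on opposite strands could not be told apart.

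Heat shock proteins are chaperones, which bind unfolded proteins and help them to fold, to stay soluble or to be refolded. Small heat shock proteins hold unfolding proteins without ATP, HSP70 and HSP90 work through cycles of ATP hydrolysis, and group I chaperonins of mitochondria and chloroplasts enclose a protein in a barrel closed by a lid. HSFs bind heat shock elements in promoters: class A factors activate transcription, many class B factors repress it, and class C factors are less well known. Several members are also active in unstressed leaves, where plastids and mitochondria import and fold large amounts of protein.

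Values below are FPKM as deposited, that is fragments scaled to transcript length and library total, unless they are called log2 fold changes. Log2 fold changes are from edgeR's quasi-likelihood test on the deposited estimated counts, each with its SE, and a gene was called when its Benjamini-Hochberg adjusted p over all 37595 genes was under 0.05. The fit used TMM scaling, which the FPKM do not carry. Scaling by library totals instead moved the median gene by 0.52 on the log2 scale between the plants at the immature stage and by 0.34 at the mature stage, so at these stages the FPKM of the variant look higher beside those of the typical plant than the fitted log2 fold changes. Shares of counts are of library totals too and are shifted in the same way.

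The libraries held between 30268130 and 58374889 counts. Replicate 3 of the variant mature leaves stood apart from its group, and counts of calls that use the variant mature leaves are therefore also given without it. Genes of leaf mesophyll (chlorophyll a-b binding proteins and the Rubisco small subunit, 16 genes) took between 2.467% and 3.272% of counts in typical immature leaves and between 0.2708% and 0.2802% in variant immature leaves, and 12 of the 13 tested were called lower in the variant there, while 1 was called higher. In mature leaves they took between 0.945% and 1.186% in the typical plant, 0.608% and 0.7245% in variant replicates 1 and 2 and 0.09784% in variant replicate 3. At most 3 of the 16 mesophyll genes were listed at 0 in any group. Genes of stem and xylem (93 genes) took between 0.01551% and 0.02191% in typical mature leaves and between 0.03269% and 0.1387% in variant mature leaves, and 51 of the 83 tested were called higher in the variant, a count that was the same without variant mature replicate 3.

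Genes that plants raise under water stress or handling (16 genes) took between 0.0223% and 0.02377% of counts in variant immature leaves and between 0.007191% and 0.0146% in typical ones, and 3 of the 9 tested were called higher in the variant and 1 lower. In mature leaves they took between 0.01057% and 0.02397% in the variant and between 0.007092% and 0.01435% in the typical plant, and 4 of the 9 were called higher, with or without variant mature replicate 3. Beside these counts, 21.7% of all tested genes were called higher in variant immature leaves and 23.1% lower, and 14.9% and 9.65% in mature ones. Other lists moved with leaf stage. From young to immature leaves 1 of 28 tested genes of dividing cells rose and 20 fell in either plant, and of 33 epidermal genes 7 rose and 19 fell in the typical plant, and 5 rose and 21 fell in the variant. Of the 13 mesophyll genes 11 rose and none fell in typical leaves over this step, and 3 rose and 1 fell in variant ones. The part of these differences in the results below was not tested, and fewer cells of a type and less RNA per cell cannot be told apart in such libraries.

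In young leaves no member was called different between the plants, where 0.17% of all tested genes were called. Of the 144 tested members, 11 were higher and 8 lower in the variant at an unadjusted p under 0.05. DESeq2 called 2 higher and 2 lower, and limma on log2(FPKM + 0.1) called 1 higher. The gene called by both was PH02Gene06505, a 24.1 kDa small heat shock protein of mitochondria, listed at 0.111, 0.1387 and 0 in typical young leaves and at 1.577, 0.4395 and 1.159 in variant young leaves. These levels did not overlap, but they were low in both plants, and the edgeR log2 fold change of 3.56 ± 0.83 had an adjusted p of 0.125.

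In immature leaves 34 members were higher and 47 lower in the variant, beside 44.9% of all tested genes called, 21.7% higher and 23.1% lower. The classes differed in direction. Of 40 tested small heat shock proteins 19 were lower and 2 higher, of 30 HSP70 genes 18 were lower and 5 higher, of 39 HSFs 8 were higher and 7 lower, of 9 HSP90 genes 6 were higher and 2 lower, and of 20 chaperonins 12 were higher and none was lower. The 19 include PH02Gene03486 and PH02Gene03497. These genes reached the count filter only through the typical immature libraries, so a lower level in the variant was built in for them. The chaperonin class lacks the plastid barrel subunits, which are named Rubisco large subunit-binding proteins. They are counted below with Rubisco folding and upkeep, a list with 2 of 22 tested genes higher and 8 lower at this stage. The median log2 fold change was -1.74 for small heat shock proteins, -0.74 for HSP70, -0.01 for HSFs, 0.68 for HSP90 and 1.13 for chaperonins, beside -0.01 for all tested genes. With library totals as the scale, 43 members were called higher and 32 lower, and the median of the small heat shock proteins and of the HSP70 genes stayed below 0. The count of small heat shock proteins called lower dropped to 12 without variant immature replicate 1, and the count of chaperonins called higher dropped to 8 without typical immature replicate 1. When libraries of one group that were nearly alike were summed into 1, 20 members were called higher and 17 lower.

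In mature leaves 13 members were higher and 33 lower in the variant, beside 24.5% of all tested genes called, 14.9% higher and 9.65% lower. Without variant mature replicate 3 the counts were 12 and 34. Library totals gave 25 higher and 27 lower. Of the members 22 were called lower in the variant at both older stages and 11 higher at both, while 3 were called in opposite directions. A further 25 were called lower and 20 higher at the immature stage alone, and 10 were called at the mature stage alone. Without variant mature replicate 3, 26 were lower at both stages, 10 higher at both and 2 in opposite directions, 24 were lower and 26 higher at the immature stage alone, and 8 were called at the mature stage alone. The share of all tested genes with each of these patterns over the older stages was not counted, so the patterns cannot be read as particular to the members. Whether the difference at the immature stage itself differed from that at the mature stage was not tested.

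**Figure D1:**
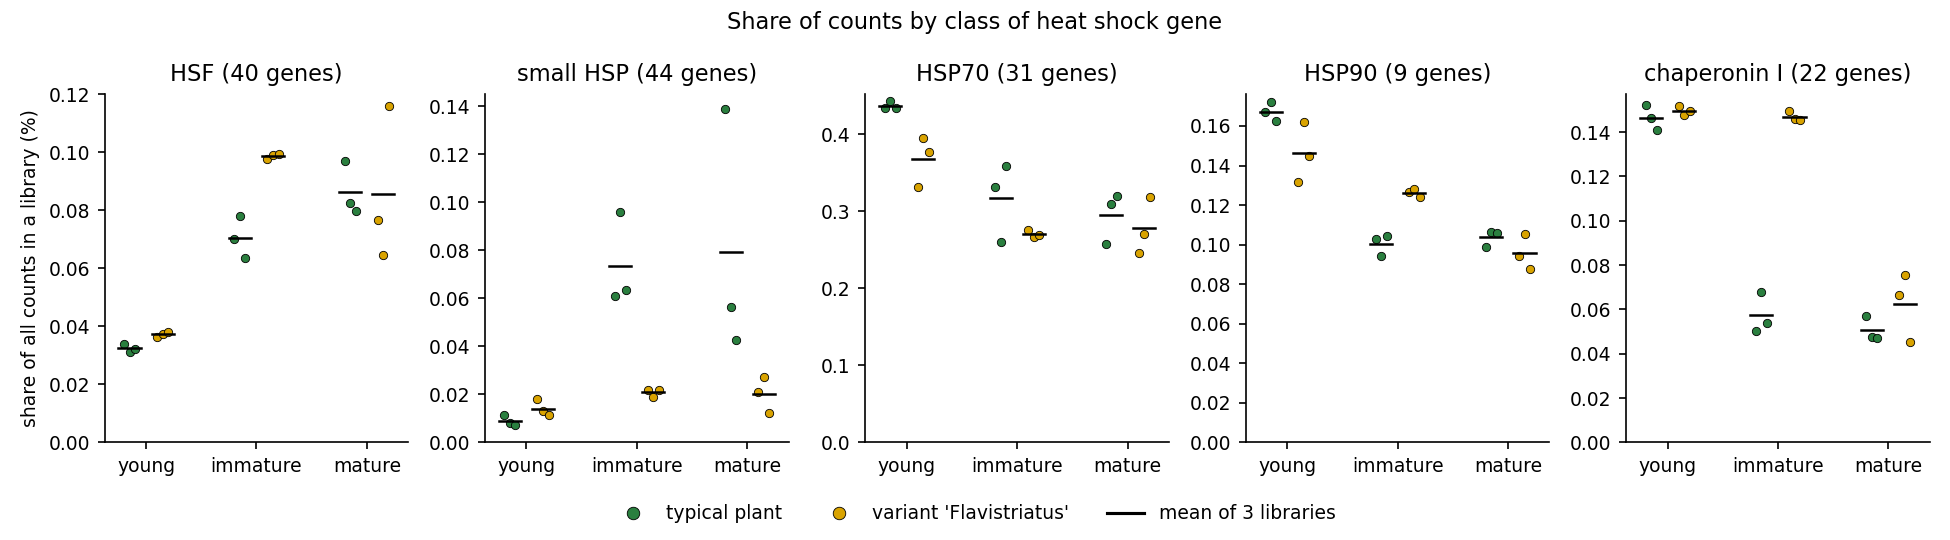
Share of all counts (percent, y axis) taken by HSFs, small heat shock proteins, HSP70, HSP90 and group I chaperonins in each of the 18 libraries, by leaf stage (x axis) and plant. Small heat shock proteins took 0.06116% to 0.09595% in typical immature libraries and 0.019% to 0.02199% in the variant ones, while chaperonins took 0.05037% to 0.06807% and 0.1453% to 0.1494%.

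As a class the HSFs took 0.03378%, 0.03117% and 0.03223% of counts in typical young leaves and 0.0702%, 0.0779% and 0.06366% in typical immature leaves. In the variant the shares were 0.03635%, 0.03751% and 0.03801% in young leaves and 0.09779%, 0.09888% and 0.0994% in immature leaves. Thus the summed share was higher in all 6 immature libraries than in all 6 young libraries, and the immature libraries of the plants did not overlap. These are shares of library totals. The TMM factors were 0.7503 to 0.7975 in typical immature libraries and 1.117 to 1.121 in variant ones. The gap between the plants therefore depends on the scale. On the TMM scale 8 HSFs were higher and 7 lower in variant immature leaves, with a median log2 fold change of -0.01. From young to immature leaves 21 HSFs rose and 6 fell in the typical plant, and 19 rose and 5 fell in the variant, beside 59.6% of all tested genes called in the typical plant (29.2% higher and 30.4% lower) and 55.6% in the variant (27.0% higher and 28.6% lower).

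HSFA2 is the factor that sustains heat tolerance in Arabidopsis, and 8 members carry an A-2 name. Of these, 7 rose in typical leaves and 5 in variant ones from the young to the immature stage. The A-2d gene PH02Gene09168 was the most abundant HSF in typical immature leaves, at 98.96, 98.12 and 80.71, and stood at 62.23, 62.99 and 62.36 in variant immature leaves. In young leaves it was at 10.37, 6.972 and 9.631 in the typical plant and at 11.97, 10.79 and 10.56 in the variant, so the plants overlapped only at the young stage. PH02Gene09168 rose by a log2 fold change of 3.87 ± 0.18 in the typical plant (adjusted p = 1.19e-09) and of 2.60 ± 0.17 in the variant (adjusted p = 3.17e-08). Its level was lower in the variant in immature leaves, with a log2 fold change of -1.02 ± 0.16 (adjusted p = 0.00015), and in mature leaves, with -0.86 ± 0.16 (adjusted p = 0.00159) or -1.005 without variant mature replicate 3. The other A-2d gene, PH02Gene03550, was at 61.16, 81.25 and 63.67 in typical immature leaves and at 43.33, 51.75 and 51.62 in variant ones, and this difference was not called although the levels did not overlap.

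The A-2 names did not move as one group. The A-2c gene PH02Gene23029 was at 17.62, 18.38 and 16.74 in typical immature leaves and at 50.29, 55.13 and 54.42 in variant ones. It was the A-2 gene called higher in the variant, with a log2 fold change of 1.15 ± 0.29 (adjusted p = 0.00511). The A-2b-like gene PH02Gene12185 was at 2.62, 2.648 and 2.927 in typical immature leaves and at 0.6751, 0.9206 and 1.544 in variant ones, a log2 fold change of -1.83 ± 0.30 (adjusted p = 0.000212). In variant mature leaves PH02Gene23029 ranged from 28.82 to 90.6, around the 33.7 to 48.9 of the typical plant, and it was not called there. The A-2e gene PH02Gene11863 (-0.61 ± 0.16, adjusted p = 0.0065) and the A-2a-like gene PH02Gene36767 (-0.49 ± 0.16, adjusted p = 0.0213) were called lower in immature variant leaves by small amounts. With library totals neither of these calls was made, and that of PH02Gene36767 also ended without typical immature replicate 1 (adjusted p = 0.0736), typical immature replicate 2 (adjusted p = 0.0757) or variant immature replicate 2 (adjusted p = 0.0701).

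Among the other class A factors, HSFA3 acts in Arabidopsis below the drought factor DREB2A. Its likeness PH02Gene29649 was at 6.518, 2.976 and 2.975 in typical immature leaves and at 35.19, 36.52 and 35.35 in variant ones. The groups lay far apart, and the log2 fold change was 2.66 ± 0.52 (adjusted p = 0.000801). In mature leaves it was at 6.362, 2.424 and 1.496 in the typical plant and at 10.93, 8.7 and 27.69 in the variant, a log2 fold change of 1.83 ± 0.51 (adjusted p = 0.0168). This call ended without typical mature replicate 2 (adjusted p = 0.0718), typical mature replicate 3 (adjusted p = 0.0604) or variant mature replicate 3, where the log2 fold change was 1.18 (adjusted p = 0.085).

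HSFA4d is the product of a spotted leaf gene of rice, and the pair with this name went apart. PH02Gene24187 was at 0.1442, 0.2099 and 0.3158 in typical immature leaves and at 1.873, 2.459 and 1.924 in variant ones, and was called higher in the variant (2.73 ± 0.41, adjusted p = 9.6e-05). PH02Gene21435 was at 5.759, 6.021 and 9.788 in typical immature leaves and at 3.686, 5.564 and 3.287 in variant ones, and was called lower (-1.24 ± 0.29, adjusted p = 0.00323). PH02Gene21435 was among the members that rose most on the log2 scale from young to immature leaves, by 5.47 ± 0.36 in the typical plant (adjusted p = 1.3e-08) and by 3.81 ± 0.34 in the variant (adjusted p = 3.94e-07). HSFA9 is a seed factor in sunflower and Arabidopsis. The gene named A-9, PH02Gene50090, was at 2.992, 2.257 and 4.302 in typical immature leaves and at 7.381, 9.498 and 7.463 in variant ones (0.89 ± 0.22, adjusted p = 0.0042).

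Class B factors were called in both directions. The B-1 gene PH02Gene27951 was at 3.777, 4.825 and 2.694 in typical immature leaves and at 20.83, 20.6 and 22.05 in variant ones, with a log2 fold change of 2.04 ± 0.34 (adjusted p = 0.0002265). In mature leaves it was at 3.365, 2.49 and 1.943 in the typical plant and at 12.1, 9.789 and 23.16 in the variant (2.18 ± 0.34, adjusted p = 0.000514), or 1.75 without variant mature replicate 3. At neither older stage did the plants overlap, while in young leaves the variant, at 2.205, 2.151 and 3.187, overlapped the typical plant, at 2.959, 1.54 and 1.809. The B-2b-like gene PH02Gene31077 went the other way. It was at 13.73, 13.65 and 11.35 in typical immature leaves and at 5.368, 6.143 and 6.643 in variant ones, and at 14.69, 14.46 and 14.26 against 5.544, 5.532 and 3.024 in mature leaves. The log2 fold changes of PH02Gene31077 were -1.54 ± 0.23 (adjusted p = 0.000108) and -1.94 ± 0.24 (adjusted p = 9.46e-05). The other B-2b-like gene, PH02Gene24117, was at 0.9134, 1.845 and 0.5314 in typical immature leaves and at 5.096, 7.346 and 6.993 in variant ones (2.12 ± 0.37, adjusted p = 0.000314). The B-2a-like gene PH02Gene01898 was lower at both stages, with log2 fold changes of -1.57 ± 0.34 (adjusted p = 0.00161) and -1.38 ± 0.34 (adjusted p = 0.00835).

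The 3 genes named HSF B-4, a class B branch active in root meristems of Arabidopsis, were detected almost only in young leaves. Their summed FPKM was 13.7, 15.4 and 17.66 in typical young leaves and 4.68, 14.87 and 12.7 in variant young leaves. In immature leaves of both plants the genes PH02Gene14439, PH02Gene17948 and PH02Gene22062 did not exceed 0.03222, and PH02Gene14439 was listed at 0 in all immature and mature libraries. All 3 fell from young to immature leaves in both plants.

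Class C factors were low in most groups. The C-1b-like gene PH02Gene18810 was at 0.8192, 0.8295 and 0.07636 in typical immature leaves and at 8.035, 4.738 and 7.522 in variant ones, and was called higher there (3.12 ± 0.85, adjusted p = 0.00776). In mature leaves the order turned: it was at 24.34, 5.351 and 2.346 in the typical plant and at 2.699, 1.423 and 1.873 in the variant, a log2 fold change of -2.79 ± 0.82 (adjusted p = 0.0228). Typical mature replicate 1 was far above its group, and the call ended without it (adjusted p = 0.225), without variant mature replicate 2 (adjusted p = 0.0653) and without variant mature replicate 3 (adjusted p = 0.0553). The C-2a gene PH02Gene40145 was at 2.608, 1.859 and 1.492 in typical immature leaves and at 14.28, 12.34 and 15.04 in variant ones (2.36 ± 0.51, adjusted p = 0.00175). The C-1a-like gene PH02Gene40343 was called higher in variant mature leaves (4.47 ± 1.04, adjusted p = 0.00656), where it was at 2.106, 0.9206 and 21.25 against 0.4091, 0.2328 and 0.1956. One library carried most of that size, since the log2 fold change was 2.11 without variant mature replicate 3, and the call was still made.

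In mature leaves 3 of the 39 tested HSFs were higher and 11 lower in the variant, and 2 and 11 without variant mature replicate 3. From immature to mature leaves 11 HSFs rose and none fell in the typical plant, where 29.4% of all tested genes were called, 13.2% higher and 16.2% lower, and 7 rose without typical immature replicate 1. In the variant 2 rose and 4 fell, where 27.3% of all tested genes were called, 15.8% higher and 11.6% lower, and without variant mature replicate 3 the counts were 1 and 11. Summing nearly alike libraries left 4 HSFs called higher and 3 lower at the immature stage (PH02Gene24187, PH02Gene29649, PH02Gene24117 and PH02Gene27951 higher, PH02Gene09168, PH02Gene12185 and PH02Gene31077 lower). For PH02Gene18810, PH02Gene21435, PH02Gene23029, PH02Gene40145, PH02Gene50090, PH02Gene01898, PH02Gene11863 and PH02Gene36767 the adjusted p then lay between 0.0567 and 0.261.

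**Figure D2:**
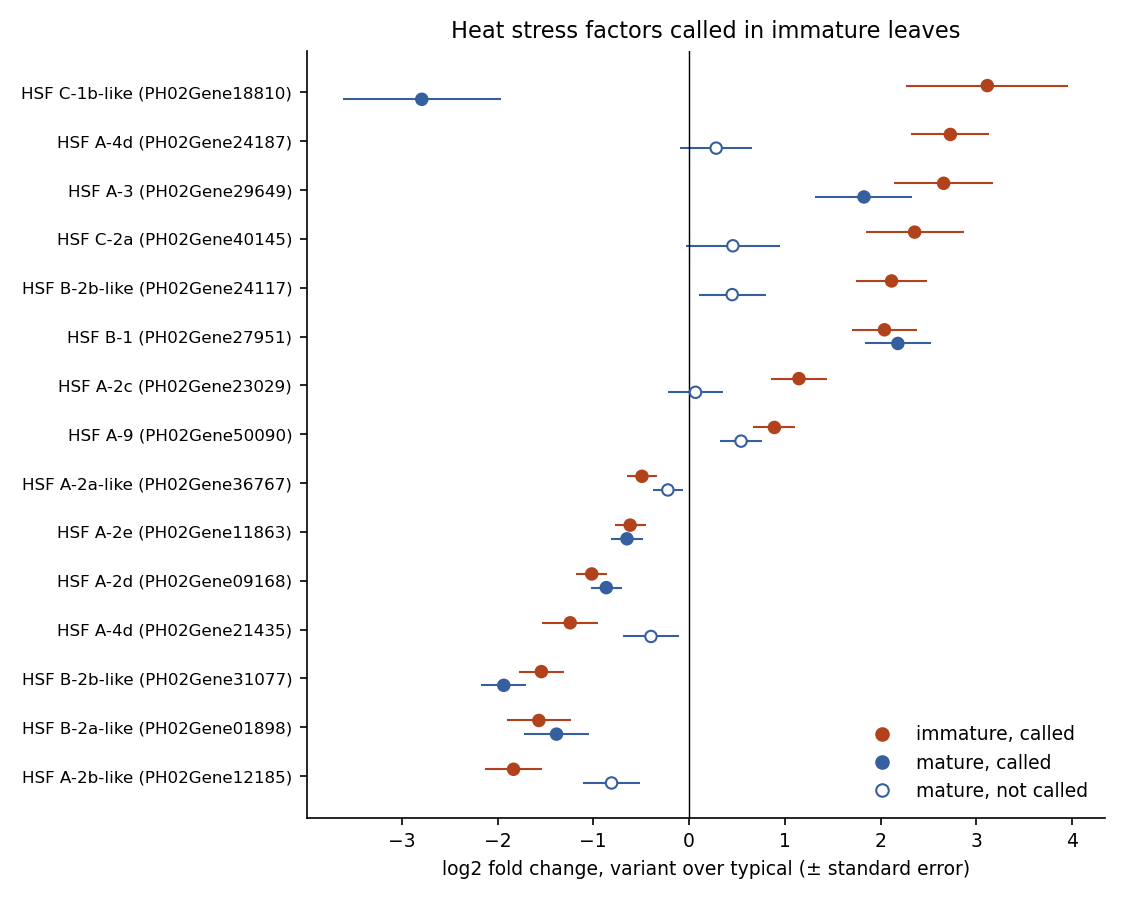
Log2 fold changes between variant and typical leaves (x axis) with SE bars for the 15 HSFs called at the immature stage, at the immature and at the mature stage. The change of PH02Gene18810 was 3.12 at the immature stage and -2.79 at the mature stage, while PH02Gene31077 was below 0 and PH02Gene27951 above 0 at both.

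Small heat shock proteins took 0.01127%, 0.008153% and 0.007188% of counts in typical young leaves, 0.06116%, 0.09595% and 0.06357% in typical immature leaves and 0.1388%, 0.05646% and 0.04258% in typical mature leaves. In the variant they took 0.01801%, 0.01301% and 0.01136%, then 0.02199%, 0.019% and 0.02167%, then 0.02088%, 0.02735% and 0.01243%. Every older typical library lay above every variant library of the same stage. From young to immature leaves 21 small heat shock proteins rose and 8 fell in the typical plant, while 7 rose and 10 fell in the variant. For PH02Gene03486 and PH02Gene03497, which reached the count filter only through the typical immature libraries, a rise in the typical plant was built in. The 40 tested genes stand here beside 29.2% of all tested genes higher and 30.4% lower in the typical plant, and 27.0% and 28.6% in the variant. The 7 that rose in the variant became 4 without variant young replicate 2 or 3.

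The cytosolic class II proteins form large storage complexes with unfolded proteins. All 4 members of this class were called lower in the variant at both older stages, and in mature leaves also without variant mature replicate 3. Their summed FPKM was 16.27, 19.03 and 15.44 in typical young leaves, 140.9, 361.5 and 180 in immature ones and 370.1, 122.3 and 84.48 in mature ones. In the variant it was 95.65, 32.24 and 35.02, then 64.69, 60.92 and 66.85, then 18.4, 16.24 and 19.83. The sum was thus higher in the variant in all young libraries and lower in all older ones.

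The 17.5 kDa class II gene PH02Gene24897 was at 26.55, 43.14 and 36.49 in typical immature leaves and at 2.778, 4.381 and 2.834 in variant ones. In mature leaves it was at 202.8, 65.48 and 47.96 in the typical plant and at 6.447, 2.127 and 4.268 in the variant. The plants did not come near each other at either stage, and the log2 fold changes of PH02Gene24897 were -3.86 ± 0.55 (adjusted p = 6.45e-05) and -4.99 ± 0.57 (adjusted p = 6.55e-05). PH02Gene24886, also of 17.5 kDa, was at 4.155, 6.748 and 6.211 in typical immature leaves and at 0.06981, 0.1199 and 0.5533 in variant ones (-4.91 ± 0.76, adjusted p = 0.000125). In mature leaves its log2 fold change was -5.09 ± 0.74 (adjusted p = 0.00031). The most abundant class II gene, PH02Gene48116, was at 108.5, 303.4 and 132.9 in typical immature leaves and at 61.61, 55.85 and 63.18 in variant ones (-2.04 ± 0.56, adjusted p = 0.00846). The third 17.5 kDa gene, PH02Gene06266, fell from young to immature leaves in the variant (-2.52 ± 0.76, adjusted p = 0.011) and rose in the typical plant (3.00 ± 0.75, adjusted p = 0.00291).

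Class I proteins are the main small heat shock proteins of the cytosol. Of 10 such members 8 were tested. The tested ones were all called lower in variant immature leaves, and 2 of them in mature leaves, also without variant mature replicate 3. However, PH02Gene03486 and PH02Gene03497 reached the count filter only through the typical immature libraries, and such genes had to differ. PH02Gene00227, a 17.9 kDa class I protein, was at 9.383, 7.553 and 5.926 in typical young leaves, 123.1, 286.4 and 157.2 in immature ones and 318, 206.6 and 178.9 in mature ones. In the variant it was at 17.75, 9.397 and 9.64, then at 24.53, 22.01 and 29.22, then at 62.15, 65.01 and 20.83. The log2 fold change between the plants was -3.36 ± 0.46 in immature leaves (adjusted p = 5e-05) and -2.58 ± 0.45 in mature ones (adjusted p = 0.00103), or -2.20 without variant mature replicate 3.

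The most abundant small heat shock protein was PH02Gene04134, of 17.9 kDa and with no class in its name. It was at 536.4, 370.3 and 436.8 in typical immature leaves and at 94.5, 86.81 and 97.35 in variant ones, and at 550.6, 295.5 and 246.4 against 125.7, 194.4 and 121.4 in mature leaves. Its log2 fold changes were -2.72 ± 0.33 (adjusted p = 1.67e-05) and -1.65 ± 0.32 (adjusted p = 0.00203). In young leaves it was at 79.27, 47.39 and 54.07 in the typical plant and at 67.73, 46.91 and 63.87 in the variant, which overlapped.

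Several class I genes stand in tandem, and 20 small heat shock proteins lay in 8 arrays whose genes were at most 100000 bases apart. The authors' table placed PH02Gene22220, PH02Gene22221, PH02Gene22222 and PH02Gene22223 within bases 102523534 to 102557198 of scaffold 14. It placed PH02Gene04131, PH02Gene04132 and PH02Gene04134 within 118196962 to 118211893 of scaffold 16, and PH02Gene03499, PH02Gene03498 and PH02Gene03497 within 87429957 to 87433631 of scaffold 21. The genome build is not given in the sources used here. Where neighbours are near-identical, the estimated counts may have been split between them, so single values in an array are uncertain.

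In the array on scaffold 21, PH02Gene03497 was at 5.946, 16.41 and 8.736 in typical immature leaves and at 0, 0.2478 and 0 in variant ones (-7.25 ± 1.57, adjusted p = 0.00172). It was at or below 0.6108 in all libraries of the other groups. PH02Gene03486, on the same scaffold, was at 2.403, 5.702 and 3.426 against 0, 0.1289 and 0.2018 (-5.21 ± 1.75, adjusted p = 0.0273). Its call ended without typical immature replicate 2 (adjusted p = 0.062) or without any 1 of the variant immature replicates (adjusted p = 0.0524 to 0.0756). Since PH02Gene03497 and PH02Gene03486 reached the count filter only through the typical immature libraries, their p-values at this stage are no evidence of a difference. PH02Gene04131 and PH02Gene04132, 16.9 kDa class I proteins, were listed at 0 in all variant immature libraries and between 0.3683 and 2.228 in typical immature ones.

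PH02Gene22220 and PH02Gene22221, 16.9 kDa class I neighbours chosen after their values were seen, varied widely within the typical groups. PH02Gene22220 was at 6.447, 57.67 and 21.34 in typical immature leaves and at 254.6, 57.57 and 27.22 in typical mature ones, against 7.009, 7.966 and 8.294 and 20.42, 24.06 and 2.67 in the variant. The plants overlapped at the immature stage, and the call there (-2.33 ± 0.86, adjusted p = 0.0379) ended when any 1 of 5 libraries was left out. The mature call (-3.21 ± 0.89, adjusted p = 0.0164) ended without typical mature replicate 1 (adjusted p = 0.123). PH02Gene22221 was called lower at the immature stage (-3.15 ± 0.88, adjusted p = 0.00938).

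Small heat shock proteins of other compartments moved too. The mitochondrial PH02Gene06505 was at 32.43, 65.5 and 39.4 in typical immature leaves and at 13.63, 15.32 and 12.38 in variant ones, and at 97.89, 43.26 and 31.26 against 8.393, 12.86 and 2.981 in mature leaves. The log2 fold changes were -2.19 ± 0.62 (adjusted p = 0.00998) and -3.17 ± 0.65 (adjusted p = 0.00292), and from young to immature leaves it rose by 9.53 ± 0.92 in the typical plant (adjusted p = 4.74e-07) and by 3.78 ± 0.68 in the variant (adjusted p = 0.000261). The order of the plants was therefore the other way round in young leaves, where the typical plant was near 0. The peroxisomal 16.0 kDa protein PH02Gene05267, chosen after its values were seen, was at 104.9, 58.74 and 52.71 in typical mature leaves and at 28.73, 29.77 and 13.31 in variant ones (-1.92 ± 0.40, adjusted p = 0.00323). Its immature call (-1.22 ± 0.39, adjusted p = 0.0194) ended without typical immature replicate 2 (adjusted p = 0.121), variant immature replicate 1 (adjusted p = 0.0769) or variant immature replicate 2 (adjusted p = 0.0513). The class III gene PH02Gene14173, likewise chosen afterwards, was at 31.17, 73.15 and 35.78 in typical immature leaves and at 4.889, 4.79 and 3.778 in variant ones (-3.83 ± 0.70, adjusted p = 0.000505). Its mature call (-2.45 ± 0.68, adjusted p = 0.0169) ended without typical mature replicate 1 (adjusted p = 0.0572) or variant mature replicate 1 (adjusted p = 0.055).

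Most plastid small heat shock proteins behaved otherwise. Of 11 tested, 1 was called higher and 1 lower in variant immature leaves, and none was called between the plants in mature ones. From young to immature leaves 1 rose and 7 fell in either plant. The 7 genes named chloroplastic-like, of 25.3 or 26.7 kDa, were seen in young leaves of both plants, with sums of 24.8, 18.43 and 8.309 in the typical plant and 26.08, 40.5 and 16.46 in the variant. In all older libraries the sum was at most 0.1893. All 7 fell from young to immature leaves in both plants, and none was called between the plants. A further plastid gene, PH02Gene44498, chosen after its values were seen, was at 0.7621, 3.002 and 0.3589 in typical immature leaves and at 10.13, 8.881 and 5.337 in variant ones (2.12 ± 0.58, adjusted p = 0.00787). It and PH02Gene40874, of 21.9 kDa and listed at 0 in all typical immature libraries, were the 2 small heat shock proteins called higher in the variant at that stage.

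In mature leaves 1 small heat shock protein was higher and 10 lower in the variant, and 2 and 10 without variant mature replicate 3. Typical mature replicate 1 held the highest level of its group for PH02Gene00227, PH02Gene04134, PH02Gene24897, PH02Gene48116 and PH02Gene06505. With nearly alike libraries summed, 5 small heat shock proteins were called lower at the immature stage and 8 at the mature stage. The immature calls of PH02Gene00227, PH02Gene04134, PH02Gene24886, PH02Gene24897 and PH02Gene04131 were still made, whereas PH02Gene48116 (adjusted p = 0.186), PH02Gene06266 (adjusted p = 0.0665), PH02Gene06505 (adjusted p = 0.163), PH02Gene03497 (adjusted p = 0.0797), PH02Gene14173 (adjusted p = 0.0803) and PH02Gene05267 (adjusted p = 0.252) were not called.

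**Figure D3:**
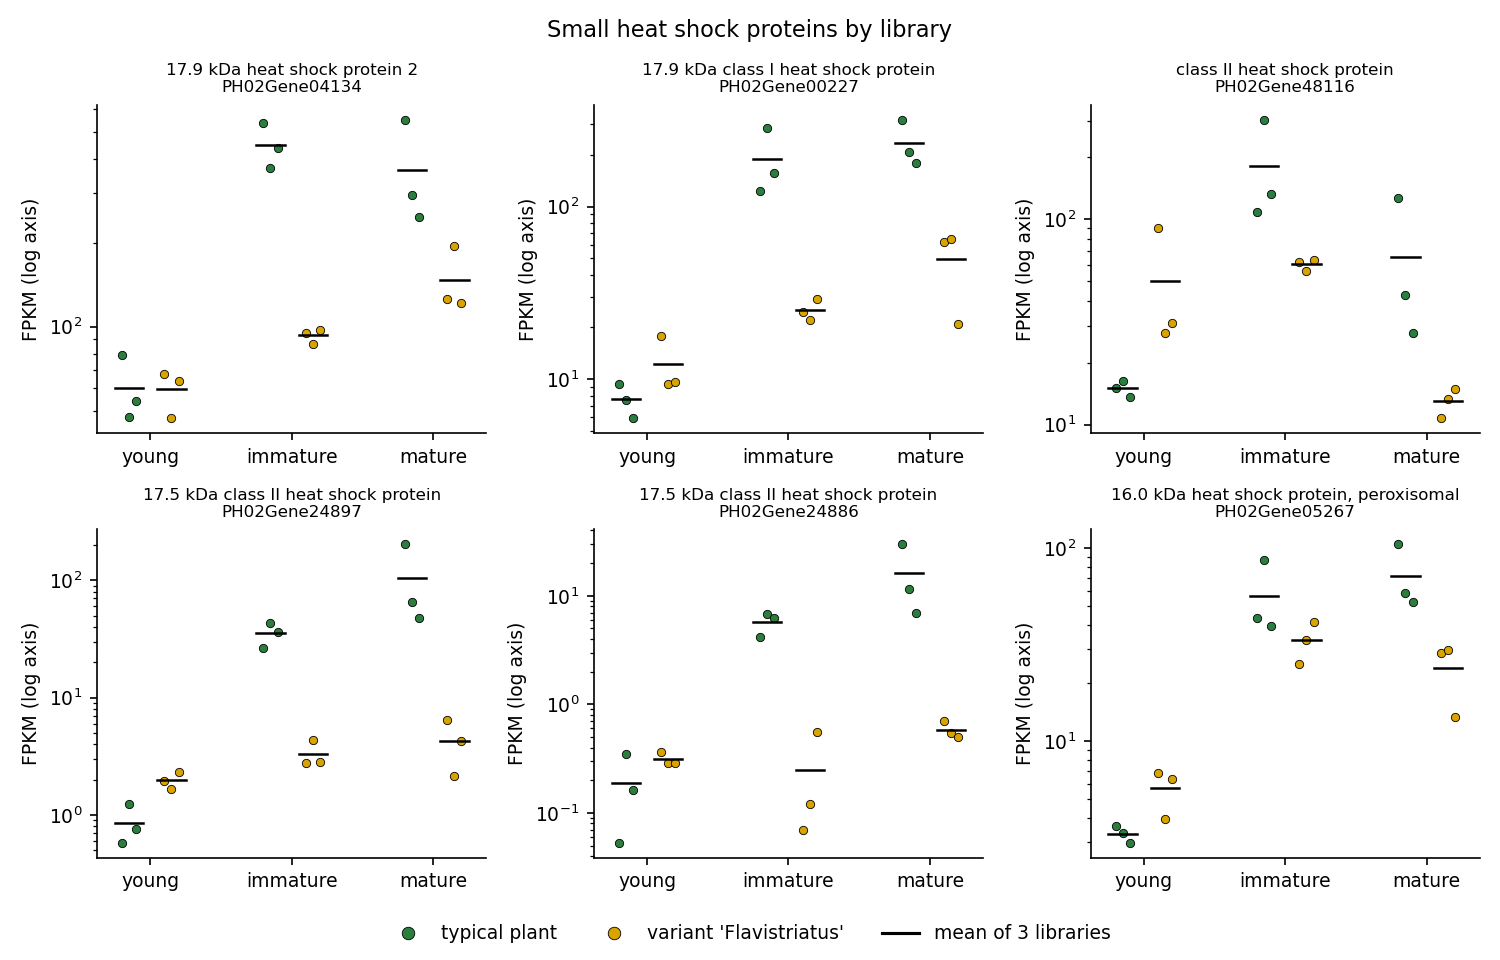
FPKM (y axis, log scale) of 6 small heat shock proteins in each library by leaf stage (x axis) and plant, with bars at the mean of 3 libraries. In typical immature leaves PH02Gene04134 stood between 370.3 and 536.4 and in variant ones between 86.81 and 97.35, and PH02Gene24897 between 26.55 and 43.14 against 2.778 and 4.381.

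HSP70 genes took 0.4338%, 0.4431% and 0.4337% of counts in typical young leaves and 0.3312%, 0.26% and 0.359% in typical immature leaves. In the variant they took 0.332%, 0.3951% and 0.3773% and then 0.2762%, 0.2668% and 0.2697%. The summed share at the immature stage, which is of library totals, overlapped between the plants. On the TMM scale 18 of the 30 tested genes were called lower and 5 higher, so share and calls are on unlike scales.

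The clearest differences were those of a pair of genes named heat shock 70 kDa protein-like, picked after their values were seen. PH02Gene32604 was at 38.92, 46.63 and 38.35 in typical immature leaves and at 2.374, 2.968 and 2.557 in variant ones, and at 19.86, 13.17 and 12.59 against 1.661, 2.1 and 1.937 in mature leaves. In young leaves it was at 6.337, 8.177 and 8.043 in the typical plant and at 7.263, 7.633 and 6.883 in the variant, within the same range. PH02Gene32604 rose by 2.97 ± 0.21 from young to immature leaves in the typical plant (adjusted p = 2.15e-08) and fell by a log2 fold change of -1.35 ± 0.20 in the variant (adjusted p = 4.15e-05). Between the plants the log2 fold change was -4.42 ± 0.22 in immature leaves (adjusted p = 3.83e-08) and -3.33 ± 0.21 in mature ones (adjusted p = 7.53e-07). PH02Gene41323 was at 6.781, 5.221 and 7.577 against 0.8156, 0.5441 and 0.4923 in immature leaves, a log2 fold change of -3.84 ± 0.27 (adjusted p = 2.56e-07), and was also lower in mature leaves (-2.33 ± 0.25, adjusted p = 4.42e-05). Both pairs of levels were separated by a wide gap, and both calls were made under every alternative tried.

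PH02Gene11742, named heat shock 70 kDa protein 8 and also chosen after its values were seen, was at 7.568, 8.69 and 8.04 in typical immature leaves and at 2.488, 2.437 and 2.392 in variant ones. In mature leaves it was at 27.27, 21.99 and 19.83 against 3.915, 4.269 and 1.622. The log2 fold changes of PH02Gene11742 were -2.18 ± 0.36 (adjusted p = 0.000194) and -3.13 ± 0.37 (adjusted p = 7.27e-05). The 4 genes named protein 15, which in Arabidopsis belongs to the Hsp110 branch of the family, were all called lower in variant immature leaves on the TMM scale, by log2 fold changes of -1.48 to -0.517 (highest adjusted p 0.0109). Library totals moved the median gene by 0.52 in this comparison, so the smallest of these changes depends on the scale.

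Cytosolic HSC70 proteins, the constitutive chaperones of the family, were called in both directions. PH02Gene42525 was at 28.65, 35.62 and 38.84 in typical young leaves and at 1.173, 0.8391 and 1.146 in typical immature ones, and at 14.98, 31.67 and 27.19 and then 10.31, 9.314 and 10.94 in the variant. It fell in both plants, by a log2 fold change of -4.51 ± 0.38 in the typical plant (adjusted p = 1.46e-07) and -1.15 ± 0.33 in the variant (adjusted p = 0.0085). Its level was higher in the variant in immature leaves (2.81 ± 0.36, adjusted p = 2.51e-05) and in mature ones (2.05 ± 0.35, adjusted p = 0.000855), or 1.54 without variant mature replicate 3. PH02Gene06078, chosen after its values were seen, was at 5.361, 4.549 and 4.99 in typical immature leaves and at 36.89, 36.87 and 35.26 in variant ones (2.42 ± 0.36, adjusted p = 9.31e-05). Its mature call (1.11 ± 0.35, adjusted p = 0.0297) rested on variant mature replicate 3, at 67.47 beside 22.62 and 17.81, and without it the log2 fold change was 0.31 (adjusted p = 0.24). That call also ended without typical mature replicate 2 (adjusted p = 0.0985) or 3 (adjusted p = 0.0984).

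The most abundant HSC70 gene in immature leaves, PH02Gene00168, chosen after its values were seen, was at 210.8, 174.8 and 214.3 in the typical plant and at 148.6, 143.2 and 147.8 in the variant (-0.90 ± 0.23, adjusted p = 0.00572). It rose from young to immature leaves in both plants, while PH02Gene11794 and PH02Gene35944, which like it encode HSP70 proteins, fell in both. PH02Gene11794 was at 261.9, 282.3 and 272 in typical young leaves and at 100.1, 46.13 and 77.58 in typical immature ones. PH02Gene35944 was called between the plants in mature leaves alone, at 119.5, 241.4 and 261.6 in the typical plant and at 141.7, 142.6 and 94.61 in the variant, with a log2 fold change of -1.01 ± 0.24 (adjusted p = 0.00738). The levels of PH02Gene35944 overlapped. With library totals the immature calls of PH02Gene00168, PH02Gene11794 (-0.91 ± 0.26, adjusted p = 0.0112) and PH02Gene41005 (-0.60 ± 0.18, adjusted p = 0.0154) were not made. That of PH02Gene11794 also ended without typical immature replicate 1 (adjusted p = 0.0638), and that of PH02Gene41005 without typical immature replicate 3 (adjusted p = 0.0584).

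HSP70 of the mitochondrial matrix pulls proteins through the import pore, and stromal HSP70 serves plastids in the same way. The mitochondrial gene PH02Gene12614, chosen after its values were seen, was at 51.5, 54.02 and 49.26 in typical young leaves, at 6.088, 6.127 and 7.461 in immature ones and at 4.658, 6.532 and 6.982 in mature ones. In the variant it was at 40.66, 53.01 and 52.03, then at 42.7, 43.62 and 45.46, then at 20.36, 31.66 and 16.5. The level in the typical plant dropped after the young stage, while in the variant the immature level lay within the range of the young one. Between the plants the log2 fold change was 2.29 ± 0.21 in immature leaves (adjusted p = 2.02e-06) and 1.61 ± 0.21 in mature ones (adjusted p = 0.000153), or 1.81 without variant mature replicate 3. The other 2 mitochondrial HSP70 genes were not called higher, and PH02Gene36647, chosen after its values were seen, at 23.57, 18.79 and 33.77 in typical immature leaves and at 25.72, 19.75 and 25.86 in variant ones, was called lower on the TMM scale (adjusted p = 0.0411) although its levels overlapped, a call that was not made with library totals and that ended when any 1 of 9 libraries was left out. Of the 4 stromal genes PH02Gene37505, chosen after its values were seen, was higher in variant leaves, at 35.88, 33.22 and 36.33 against 13.5, 12.35 and 12.61 in immature leaves (1.00 ± 0.15, adjusted p = 7.55e-05) and in mature ones (0.93 ± 0.15, adjusted p = 0.000509). The stromal gene PH02Gene49219, chosen likewise, was lower at both stages, at 29.01, 29.34 and 27.33 against 55.61, 45.85 and 69.41 in immature leaves.

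In mature leaves 4 HSP70 genes were higher and 8 lower in the variant, and 3 and 8 without variant mature replicate 3. From young to immature leaves 8 rose and 12 fell in the typical plant, and 5 rose and 17 fell in the variant, of 30 tested and beside the all-gene shares of 29.2% higher and 30.4% lower and of 27.0% and 28.6%. With library totals 5 HSP70 genes were called higher and 10 lower in immature leaves, and with nearly alike libraries summed 5 and 7.

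HSP90 proteins mature kinases, receptors and other clients in the cytosol, and have close relatives in plastids and mitochondria. Of the 9 members 6 were higher and 2 lower in variant immature leaves, and none was higher and 3 were lower in mature ones, also without variant mature replicate 3. PH02Gene07542, named Hsp90 with no organelle, was at 245.5, 218.6 and 240.5 in typical immature leaves and at 104.5, 113.9 and 108.3 in variant ones, and at 238.7, 239.1 and 240.9 against 142.8, 163 and 104.2 in mature leaves. It was lower in the variant at both stages, with log2 fold changes of -1.56 ± 0.16 (adjusted p = 4.76e-06) and -1.13 ± 0.16 (adjusted p = 0.000278). In young leaves the variant, at 91.47, 125 and 116.7, overlapped the typical plant, at 120, 127.3 and 121.6.

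The other genes with no organelle in their name differed less. PH02Gene17689 was at 82.2, 76.63 and 87.62 in typical immature leaves and at 140.6, 145.6 and 153.2 in variant ones, a log2 fold change of 0.38 ± 0.13 on the TMM scale (adjusted p = 0.0232). That call ended without typical immature replicate 1 (adjusted p = 0.0641), typical immature replicate 2 (adjusted p = 0.0678), variant immature replicate 2 (adjusted p = 0.0515) or variant immature replicate 3 (adjusted p = 0.0721). PH02Gene45866, the most abundant HSP90 gene, was at 326, 245.1 and 280.4 against 208.7, 214.3 and 206.4 (-0.89 ± 0.14, adjusted p = 0.000147).

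The HSP90 genes of organelles formed the higher group. The 4 plastid HSP90-5 genes summed to 47.11, 63.68 and 66.46 in typical immature leaves and to 155.3, 151.1 and 140.3 in variant ones. In young leaves the sums were 175.8, 171.9 and 160 in the typical plant and 170.6, 161.5 and 155 in the variant, and in mature leaves 84.28, 93.32 and 96.22 against 86.97, 104.3 and 73.76. The plants thus overlapped in young and mature leaves and lay apart in immature ones. PH02Gene05953, PH02Gene21535 and PH02Gene01254, all chosen after their values were seen, were called higher in variant immature leaves, with log2 fold changes of 1.26 ± 0.13 (adjusted p = 5.34e-06), 1.00 ± 0.22 (adjusted p = 0.00178) and 0.68 ± 0.19 (adjusted p = 0.0087). In mature leaves PH02Gene05953 (-0.65 ± 0.13, adjusted p = 0.00272) and PH02Gene01254 (-1.15 ± 0.19, adjusted p = 0.000737) were called lower, and PH02Gene21535 was not called. With library totals the mature call of PH02Gene05953 was not made.

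Both mitochondrial HSP90-6 genes were higher in variant immature leaves. Their sum was 63.23, 67.84 and 65.59 in typical young leaves and 10.29, 9.823 and 13.47 in immature ones, beside 42.2, 64.11 and 54.28 and then 33.97, 35.36 and 36.3 in the variant. PH02Gene39947, chosen after its values were seen like the other gene of the pair, was at 2.521, 2.282 and 2.695 in typical immature leaves and at 7.841, 10.27 and 7.994 in variant ones (1.34 ± 0.16, adjusted p = 1.66e-05). PH02Gene48597 was at 7.772, 7.541 and 10.78 against 26.13, 25.09 and 28.31 (1.15 ± 0.22, adjusted p = 0.000662). With nearly alike libraries summed 3 HSP90 genes were called higher at the immature stage, PH02Gene05953, PH02Gene39947 and PH02Gene48597, and PH02Gene07542 was called lower.

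Group I chaperonins took 0.1521%, 0.1466% and 0.1409% of counts in typical young leaves, 0.05037%, 0.06807% and 0.05399% in immature ones and 0.05703%, 0.04767% and 0.04721% in mature ones. In the variant the shares were 0.1518%, 0.1477% and 0.1497%, then 0.1494%, 0.146% and 0.1453%, then 0.06666%, 0.0754% and 0.0452%. At the immature stage every variant library was above every typical library and close to the level of young leaves, whereas the mature libraries overlapped. From young to immature leaves 8 chaperonins fell and 1 rose in the typical plant, and 4 fell and 2 rose in the variant, of 20 tested and beside 30.4% and 28.6% of all tested genes lower. From immature to mature leaves 4 fell and 1 rose in the typical plant, and 8 fell and none rose in the variant. Without variant mature replicate 3 the variant counts were 10 and none. Of all tested genes 16.2% fell and 13.2% rose over this step in the typical plant, and 11.6% and 15.8% in the variant.

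CPN60 builds the barrel of the mitochondrial chaperonin and the 10 kDa protein its lid. Of 9 CPN60 genes 7 were tested, and 5 were higher in variant immature leaves and 3 in variant mature ones, or 2 there without variant mature replicate 3. Their sum was 249.8, 268.6 and 258.7 in typical young leaves, 26.61, 30.95 and 37.83 in immature ones and 26.25, 32.84 and 32.3 in mature ones. In the variant it was 179, 253.1 and 234.5, then 126.7, 128.8 and 130.7, then 57.25, 58.98 and 88.86. Both older stages were apart between the plants without overlap. The CPN60-1 gene PH02Gene46097, chosen after its values were seen, was at 12.57, 16.44 and 17.63 in typical immature leaves and at 66.16, 70.06 and 70.6 in variant ones (1.69 ± 0.14, adjusted p = 8.36e-07). In mature leaves it was at 10.58, 10.78 and 11.29 against 24.31, 27.17 and 32.55 (1.04 ± 0.14, adjusted p = 0.000193). PH02Gene33807, chosen likewise, was at 3.584, 3.987 and 5.195 against 17.36, 16.33 and 16.6 in immature leaves (1.52 ± 0.22, adjusted p = 8.44e-05). Its mature call (0.80 ± 0.22, adjusted p = 0.0159) ended without typical mature replicate 1 (adjusted p = 0.0598) or variant mature replicate 3 (adjusted p = 0.0683).

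All 3 genes named 10 kDa chaperonin-like were higher in variant immature leaves. Their sum was 143.2, 153.4 and 150.8 in typical young leaves and 20.07, 18.52 and 15.95 in immature ones, beside 119.5, 160.2 and 160.1 and then 106.5, 118.5 and 113.5 in the variant. PH02Gene35745, chosen after its values were seen, was at 4.013, 3.2 and 3.032 in typical immature leaves and at 19.81, 24.23 and 26.55 in variant ones (2.33 ± 0.23, adjusted p = 3.02e-06). PH02Gene17945, chosen likewise, was at 10.29, 9.328 and 7.74 against 65.08, 68.9 and 63.08 (2.40 ± 0.30, adjusted p = 2e-05). Barrel and lid genes were thus high in the same libraries. In mature leaves PH02Gene17945 was called by a narrow margin (0.83 ± 0.29, adjusted p = 0.0479), and that call ended when any 1 of 17 libraries was left out.

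The 20 kDa chaperonin is the lid of the plastid chaperonin, which assembles Rubisco. Of its 8 genes 2 were called higher in variant immature leaves. Their sum was 285.2, 389.4 and 290.2 in typical immature leaves and 679.2, 652.8 and 639.1 in variant ones. The FPKM sums did not overlap, while most single genes missed the threshold on the TMM scale. PH02Gene35411 was at 45.29, 68.85 and 43.02 against 216.6, 197.4 and 197.3 (1.51 ± 0.41, adjusted p = 0.00797), and from immature to mature leaves of the variant it fell by a log2 fold change of -3.26 ± 0.44 (adjusted p = 0.000155). PH02Gene02869, chosen after its values were seen, was at 30.54, 55.83 and 25.29 against 120.7, 127.9 and 110.4 (1.24 ± 0.38, adjusted p = 0.0152), a call that ended without typical immature replicate 1 (adjusted p = 0.0593) or 3 (adjusted p = 0.0664). Its mature call (1.17 ± 0.38, adjusted p = 0.0351) ended without typical mature replicate 1 (adjusted p = 0.0838), 2 (adjusted p = 0.064) or 3 (adjusted p = 0.1), and without variant mature replicate 1 (adjusted p = 0.121) or 2 (adjusted p = 0.126). In variant mature replicate 3 PH02Gene30356, another 20 kDa gene, was at 20.64 beside 89.33 and 101 in the other 2 libraries.

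In mature leaves 5 of the 20 tested chaperonins were higher in the variant and none was lower. The count of higher genes dropped to 3 without typical mature replicate 2 or without variant mature replicate 1, and without variant mature replicate 3 it was 5, with 1 lower. With library totals 12 were called higher, and with nearly alike libraries summed 7 were higher at the immature stage and 1 at the mature stage.

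**Figure D4:**
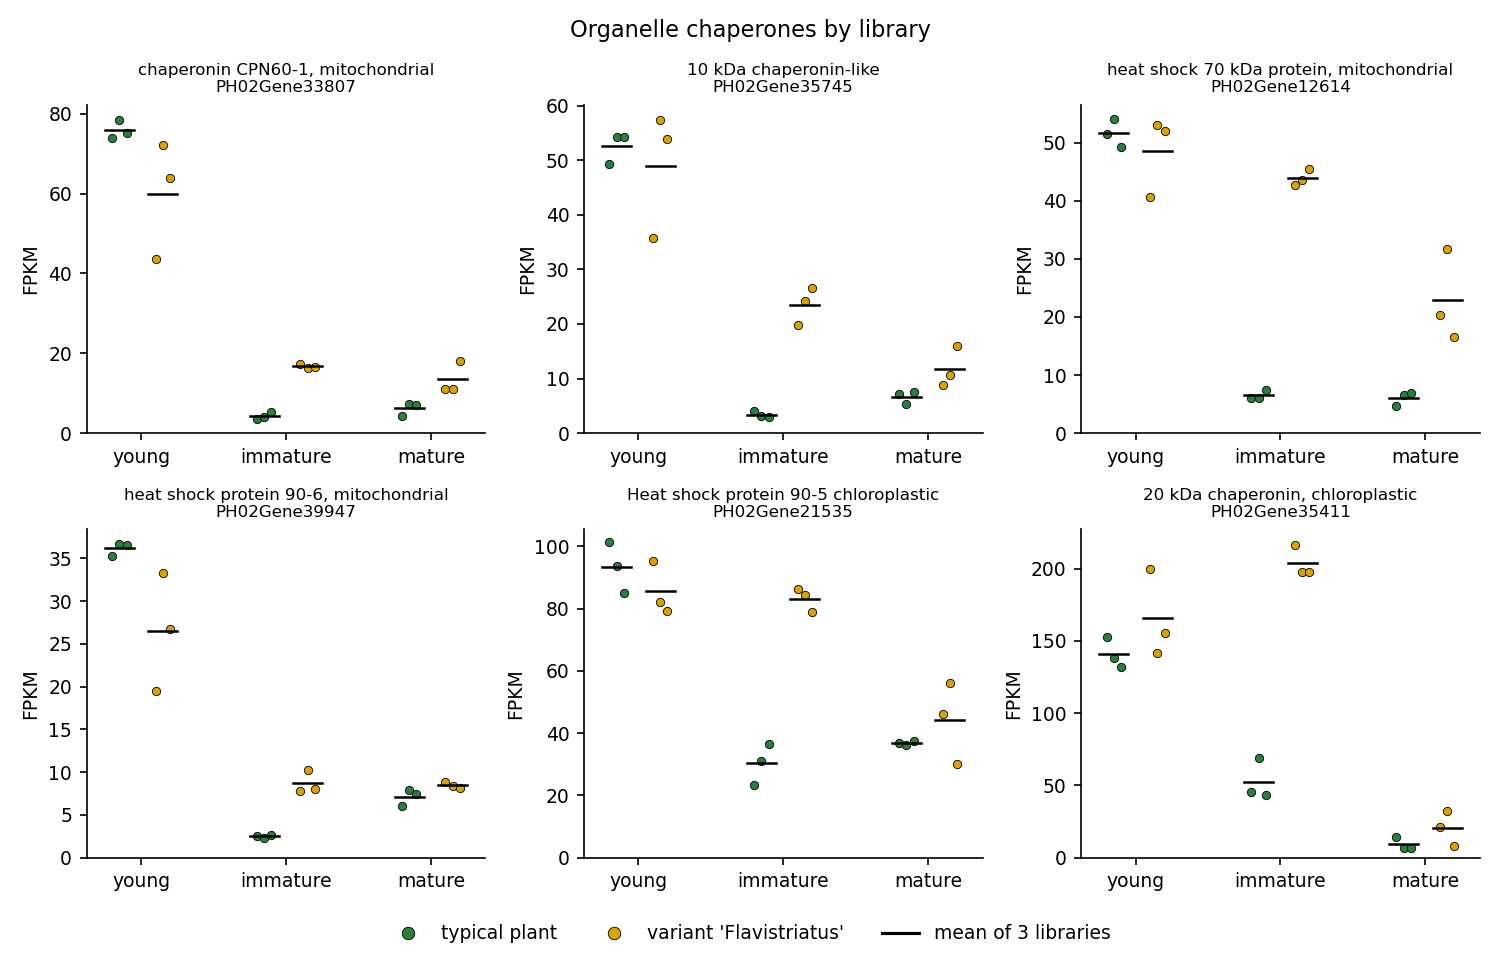
FPKM (y axis, from 0) of 6 chaperone genes named for mitochondria or chloroplasts, or as a 10 kDa chaperonin, in each library by leaf stage (x axis) and plant, with bars at the mean of 3 libraries. The mitochondrial HSP70 gene PH02Gene12614 stood between 42.7 and 45.46 in variant immature leaves and between 6.088 and 7.461 in typical ones.

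RbcX proteins help the large subunit of Rubisco to assemble after the chaperonin has released it. PH02Gene06959, named RbcX protein 2, was at 73.89, 66.96 and 95.73 in typical immature leaves and at 27.95, 27.22 and 28.38 in variant ones, and at 208.5, 130.1 and 110.9 against 47.4, 50.83 and 58 in mature leaves. The variant was lower at both stages, by log2 fold changes of -1.96 ± 0.30 (adjusted p = 0.000112) and -1.87 ± 0.30 (adjusted p = 0.000562). PH02Gene40208, named RbcX protein 1, went the other way in immature leaves, at 1.01, 0.5804 and 1.079 in the typical plant and at 11.52, 13.47 and 11.7 in the variant (3.31 ± 0.36, adjusted p = 6.9e-06). In typical mature leaves PH02Gene40208 was at 29.09, 17.95 and 16.83, after a rise of 4.49 ± 0.38 from the immature stage (adjusted p = 2.92e-06), and the plants were not called different there. In the variant it rose by 3.88 ± 0.37 between the young and the immature stage (adjusted p = 7.79e-07), where the typical plant showed 0.65 ± 0.35 (adjusted p = 0.12).

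The 3 activators of the HSP90 ATPase, which speed the cycle of HSP90, were not called between the plants at any stage. In variant leaves 1 was called higher at the immature and at the mature stage with library totals and with limma on log2(FPKM + 0.1), and at the immature stage with limma on log2(FPKM + 1). PH02Gene15297 was at 15.52, 16.58 and 13.19 in typical immature leaves and at 17.76, 18.48 and 15.03 in variant ones, and the levels overlapped. Those of PH02Gene15298, its neighbour on scaffold 22, and of PH02Gene35807 gave log2 fold changes of -0.17 and -0.02.

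The change from young to immature leaves was compared between the plants by the difference of their log2 fold changes. It differed for 63 members, being more positive in the variant for 25 and more negative for 38, beside 12.5% and 13.9% of all tested genes, or 26.3% in both directions. With library totals the counts were 31 and 32. Small heat shock proteins made up 17 of the 38 and 1 of the 25, HSP70 genes 10 and 5, HSFs 8 and 6, HSP90 genes 2 and 5, and chaperonins none and 7. The 17 include PH02Gene03486 and PH02Gene03497, which reached the count filter only through the typical immature libraries. The 6 HSFs became 3 without typical young replicate 1 or without variant young replicate 1. With nearly alike libraries summed 5 members were more positive and 2 more negative, and none of these was an HSF or a small heat shock protein.

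Named by these differences, the small heat shock proteins PH02Gene00227 (-4.00), PH02Gene24897 (-5.00) and PH02Gene06505 (-5.75), the HSP70 genes PH02Gene32604 (-4.32) and PH02Gene41323 (-4.03) and the factor PH02Gene31077 (-1.98) rose less in the variant or did not rise there. At the other end PH02Gene42525 (3.35), PH02Gene12614 (2.43), PH02Gene35745 (2.49) and PH02Gene17945 (2.39) fell less in the variant or did not fall there. Of all members 25 rose in both plants, 27 fell in both and 5 changed in opposite directions. How many of all tested genes did so was not counted, so these counts cannot be read as particular to the members.

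**Figure D5:**
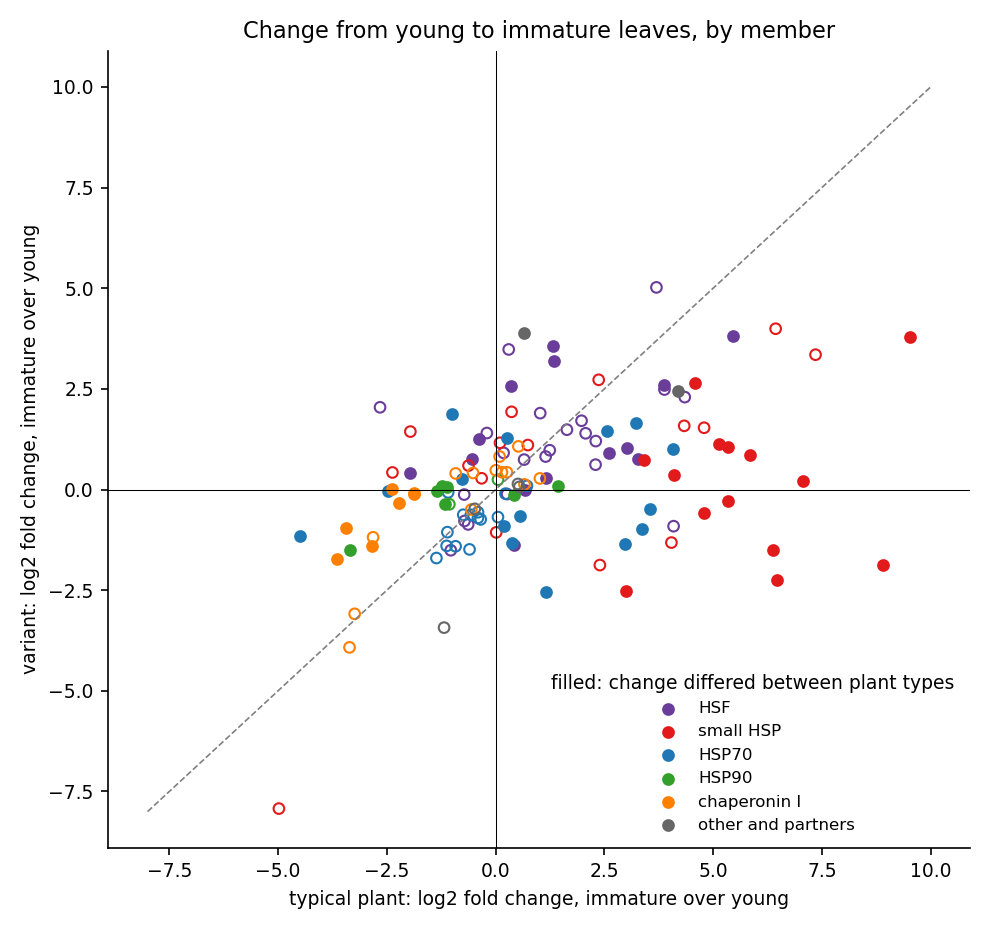
Log2 fold change from young to immature leaves in the variant (y axis) against that in the typical plant (x axis) for 130 members, with 14 left out that were listed at 0 in a whole group. Filled points mark the 59 plotted members whose change differed between the plants, 14 of them small heat shock proteins.

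Genes outside the members that work with these chaperones were counted in the same way. Of all tested genes 21.7% were called higher in the variant and 23.1% lower in immature leaves, and 14.9% and 9.65% in mature ones. Some counts below were near or under these shares, and no list was tested as a set. Of 76 tested J-domain co-chaperones, which bring clients to HSP70, 10 were higher in the variant and 28 lower in immature leaves, and 8 were higher and 20 lower in mature ones. Of 39 chaperones of the endoplasmic reticulum 6 were higher and 16 lower in immature leaves, while 5 were higher and 1 lower in mature ones. Of 10 Clp ATPases, which pull apart aggregates or feed proteases, 2 were higher and 6 lower at the immature stage, and 1 was higher and 6 lower at the mature stage. Of 22 genes for Rubisco folding and upkeep, a list that holds the plastid barrel subunits under their name of Rubisco large subunit-binding proteins, 2 were higher and 8 lower in immature leaves, and 1 was higher and 5 lower in mature ones. Of 30 other co-chaperones 1 was higher and 4 lower in immature leaves, and 7 were higher and 5 lower in mature ones. Of 11 prefoldin genes 3 were higher and 1 lower in immature leaves, and none was higher and 2 were lower in mature ones. Of 13 genes of families that HSFs or DREB2 factors control in Arabidopsis 4 were higher and 1 lower in immature leaves and likewise 4 and 1 in mature ones. Without variant mature replicate 3 the mature counts, higher and then lower, were 8 and 18 for J-domain co-chaperones, 5 and 1 for the endoplasmic reticulum, none and 6 for Clp ATPases, 2 and 4 for Rubisco folding, 9 and 6 for other co-chaperones, none and none for prefoldin and 2 and 2 for the genes under HSF or DREB2 control.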

How the data were processed

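Poly(A)-primed cDNA libraries of 18 leaf samples were measured by sequencing, 3 for each plant and stage. Read processing used Salmon, FastQC and cutadapt, per the submitters' processing notes, which give no versions. The genome build was not given in the sources used here, and neither was the annotation. Per the file headers, the authors deposited an estimated count and an FPKM for each gene and library, with no normalization stated for the counts, and gene descriptions and coordinates beside them. The estimated counts were rounded to whole numbers.

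The 152 members were found by their description. The members, the role classes and the lists of markers and partner genes were chosen with earlier results of these data known. edgeR 4.0.16 in R 4.3.3 was fitted to the whole table (TMM, filterByExpr with counts of at least 10 and totals of at least 15, 6 group means, 12 residual degrees of freedom), which kept 37595 of 42520 genes, and 8 comparisons were tested two-sided with Benjamini-Hochberg adjustment. On simulated counts for variant against typical immature leaves, with 37595 genes, the fit recovered 23% of genes changed by 1 and 72% of genes changed by 2 on the log2 scale, with 3 false calls. The simulation changed only a small set of genes and held no stage differences. In the measured comparison 44.9% of genes were called, so the adjusted threshold was less strict there. The recovered shares are therefore not the power of the reported comparison. Genes named in the text are the 3 with the highest mean FPKM in each class, the 3 called members with the largest log2 fold change in each direction of each comparison, and each HSF called at the immature stage. Other genes are said to have been chosen after their values were seen where they are first described, or are counted as part of a group.

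Replicates were compared first. All pairs differed by more than sampling noise, but some were nearly alike (robust CV under 0.1 between libraries), and in one alternative all typical young libraries, typical mature replicates 2 and 3 and all variant immature libraries were summed into 1 library for each group, the lone libraries being assumed to vary like the others. The other alternatives were DESeq2 1.42.0, library totals as the scale, no filter, limma 3.58.1 on log2(FPKM + 1) or log2(FPKM + 0.1), each library left out, a fit of only the groups compared, and the replicate number as a block. A member listed at 0 in a whole group was given no fold change. The depth was between 30268130 and 58374889 counts a library, and the 3 libraries a group limit the precision.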

Additional observations from a re-analysis of the deposited data

Results flagged for a closer look

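The change from young to immature leaves differed between the plants, by the test of the difference itself in edgeR (Benjamini-Hochberg adjusted p under 0.05), for 63 members. The values below are the log2 fold change in the variant minus that in the typical plant. For PH02Gene03486 and PH02Gene03497, which reached the count filter only through the typical immature libraries, a negative value was built in. With nearly alike libraries summed 5 members were more positive and 2 more negative, PH02Gene32604 (adjusted p = 0.0116) and PH02Gene41323 (adjusted p = 0.0273) being the latter.

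The difference was negative for the small heat shock proteins PH02Gene00227 (-4.00), PH02Gene03486 (-7.86), PH02Gene03497 (-10.76), PH02Gene04134 (-2.65), PH02Gene05267 (-1.95), PH02Gene06266 (-5.52), PH02Gene06505 (-5.75), PH02Gene14173 (-5.37), PH02Gene22221 (-4.29), PH02Gene24886 (-5.62), PH02Gene24897 (-5.00) and PH02Gene48116 (-3.74). It was negative for the HSP70 genes PH02Gene00168 (-1.10), PH02Gene11742 (-3.07), PH02Gene26751 (-4.35), PH02Gene32604 (-4.32), PH02Gene41323 (-4.03) and PH02Gene49219 (-1.22, not called with library totals), for the HSP90 genes PH02Gene07542 (-1.36) and PH02Gene45866 (-0.56), and for PH02Gene06959 (-1.73), an RbcX gene. Among HSFs it was negative for PH02Gene01898 (-2.52), PH02Gene09168 (-1.28), PH02Gene11863 (-0.86), PH02Gene12185 (-1.80), PH02Gene21435 (-1.66), PH02Gene31077 (-1.98) and PH02Gene36767 (-0.69).

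It was positive for the HSFs PH02Gene24117 (1.64), PH02Gene24187 (2.39), PH02Gene27951 (1.84), PH02Gene29649 (2.24), PH02Gene40145 (2.21) and PH02Gene50090 (1.29), and for the HSP70 genes PH02Gene06078 (2.89), PH02Gene12614 (2.43), PH02Gene37505 (1.03) and PH02Gene42525 (3.35). It was positive for the HSP90 genes PH02Gene05953 (1.30), PH02Gene17689 (0.81), PH02Gene21535 (1.17), PH02Gene39947 (1.85) and PH02Gene48597 (1.32), for the chaperonins PH02Gene17945 (2.39), PH02Gene33807 (1.92), PH02Gene35745 (2.49) and PH02Gene46097 (1.79), and for PH02Gene40208 (3.23), the other RbcX gene.

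The call of PH02Gene00168 ended without typical young replicate 2 (adjusted p = 0.0543), typical young replicate 3 (adjusted p = 0.0588) or variant young replicate 1 (adjusted p = 0.0696). That of PH02Gene05267 ended without variant young replicate 1 (adjusted p = 0.0504) and that of PH02Gene22221 without typical young replicate 2 (adjusted p = 0.0507). The number of libraries whose absence ended a call was 6 for PH02Gene24117, 7 for PH02Gene29649, 8 for PH02Gene40145, 9 for PH02Gene36767 and 13 for PH02Gene45866.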

How the results depend on the processing

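No called member was called in the opposite direction under any alternative tried. Counts of members are given as higher and lower, and counts of all genes as calls in both directions. Between the plants in young leaves edgeR called 0 members and 64 genes, DESeq2 2 and 2 members and 497 genes, limma on log2(FPKM + 0.1) 1 member higher and 208 genes, limma on log2(FPKM + 1) 254 genes, the replicate block 38 genes and the fit with nearly alike libraries summed 0 genes. Leaving out 1 library gave 5 to 164 genes. Summing nearly alike libraries gave 20 and 17 members and 5398 genes in place of 16868 in immature leaves, 5 and 19 members and 2538 genes in place of 9224 in mature leaves, and 5 and 2 members and 296 genes in place of 9900 for the difference between the plants. For the stages it gave 33 members higher and 14029 genes in place of 56 and 22412 from young to immature typical leaves, 13 and 5 members and 5135 genes in place of 11058 from immature to mature typical leaves, 23 and 20 members and 10397 genes in place of 20906 from young to immature variant leaves, and 0 and 1 members and 142 genes in place of 10275 from immature to mature variant leaves. In mature leaves 25 members were higher with library totals, 22 with limma on log2(FPKM + 0.1) and 20 on log2(FPKM + 1), and a fit of only the groups compared gave 6 and 18 members and 2641 genes. That fit gave 13 members higher and 7210 genes from immature to mature typical leaves. From immature to mature variant leaves limma called 35 and 37 members lower. Leaving out 1 library gave 8 to 14 members higher in mature leaves, 8 without typical mature replicate 2, and 10 to 21 lower from immature to mature typical leaves, 10 without typical immature replicate 2, typical mature replicate 2 or typical mature replicate 3.

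With library totals the share of calls that were higher moved from 48.4% to 74.1% in immature leaves, from 60.7% to 85.1% in mature ones, from 49.0% to 33.4% from young to immature typical leaves and from 47.3% to 74.1% for the difference between the plants. Turned signs are given where the value was called in the reported fit or with the turned sign. The sign turned for PH02Gene35807 in immature leaves (0.496 with library totals, 0.418 and 0.386 with limma, -0.02 in the reported fit), for PH02Gene36767 there with library totals (0.023), and for PH02Gene45866 from young to immature typical leaves (-0.086 with library totals, -0.095 and -0.094 with limma). From immature to mature variant leaves PH02Gene06078 (-0.784) and PH02Gene23029 (-0.570) were called lower without variant mature replicate 3, and over all libraries left out these values reached 0.326 and 0.313. Both lay near 0 and uncalled in the reported fit (0.012 and 0.026), and uncalled values below 0 also came from library totals (-0.037 and -0.028), limma (-0.272 and -0.177 with 0.1 added) and the replicate block (-0.068 and -0.028). The cause of these moves was not tested. The summed fit also had fewer libraries, and the part of that in its counts was not tested either. Whether the replicate numbers pair the samples was not settled. Of 45 correlations between libraries with the same number 10 were over 0.1, and 8 of 18 libraries were closest to their own number. These correlations ran from -0.2399 to 0.4054, the highest being that of typical young replicate 1 with variant young replicate 1. Libraries of unlike number, typical young replicate 3 and variant young replicate 2, reached 0.3817. With the number as a block the members called were 34 and 46 in immature leaves, 11 and 32 in mature ones and 26 and 35 for the difference between the plants.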
